A study of Mus musculus with 2 samples.

Results

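The expression of 10 genes of the Notch pathway was followed across 5 populations of embryonic cells, out of 24543 genes listed in the deposited tables, of which 17784 had at least 1 UMI (a unique molecular identifier, which counts 1 captured RNA molecule). The 10 genes are the receptors Notch1 and Notch4, the ligands Dll4, Jag1 and Jag2, the target genes Hey1, Hey2 and Hes1, the DNA-binding factor Rbpj and the E3 ubiquitin ligase gene Neurl3. They were chosen by name, and all 10 had UMIs. CD31+CD44+ cells, a sort that takes endothelial cells and cells emerging from them, came from the caudal region of mouse embryos at embryonic day 10 and were measured by 10x Genomics scRNA-seq. Control cells came from littermates, which were Nupr1 fl/fl or Nupr1 fl/+, and cKO cells from Vec-Cre;Nupr1 fl/fl embryos, in which Cre under the vascular endothelial cadherin promoter deletes Nupr1 from the endothelial stage onwards. Every group thus carried at least 1 floxed Nupr1 allele. In each of 2 replicates hashtagged control and cKO cells were loaded together. The cells of 1 genotype in 1 replicate are called a pool here, and 2139 cells were deposited (334 control and 344 cKO cells in replicate 1, 748 and 713 in replicate 2). How many embryos entered a pool is not given in the sources used here, so p-values measure the spread between these pools.

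Notch receptors are transmembrane proteins that are activated by ligands of the Delta and Jagged families on a neighbouring cell. Cleavage by ADAM proteases and then by gamma-secretase frees the intracellular domain, which joins Rbpj on DNA and turns on genes of the Hey and Hes families, themselves transcriptional repressors. In the embryo the pathway is known for arterial fate, where Dll4, Notch1, Notch4 and Hey2 are classical arterial genes, and for the endothelial-to-hematopoietic transition (EHT), in which cells of the aortic wall become hematopoietic stem and progenitor cells and need Notch1 early. Neurl3 belongs to the Neuralized family, whose founding members act on Notch ligands, and it is known as a marker of hemogenic endothelium.

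On GRCm38 (GENCODE M21), the members lie on 8 chromosomes: Notch1 at chr2:26457903-26516663, Notch4 at chr17:34564268-34588503, Dll4 at chr2:119325784-119335962, Jag1 at chr2:137081456-137116644, Jag2 at chr12:112907819-112929776, Hey1 at chr3:8663359-8667256, Hey2 at chr10:30832359-30842801, Hes1 at chr16:30064384-30067796, Rbpj at chr5:53466152-53657362 and Neurl3 at chr1:36264597-36274679. All 10 are protein-coding genes, and UMIs were matched to them by symbol. RefSeq promoters on GRCm38.p6, from 250 bases before to 50 bases after an annotated start, matched 8 of the 10 members, leaving out Hey1 and Hes1. The windows of Neurl3, Notch1, Rbpj and Jag2 lie wholly inside the gene spans above. They thus stand at another start than the outer end of the span. Each was searched on both strands for GTGGGAA, letters that Rbpj is known to bind, which 6.38% of the 32851 promoters of this length hold. Only Hey2 among the 8 held it, with 2 matches that begin 207 and 4 bases before the start. The promoters of Hey2, Dll4 and Neurl3 are printed because these genes separated the populations in different ways: Hey2 was most nearly limited to arterial-gated cells, Dll4 was high in arterial-gated and plexus-gated cells alike, and Neurl3 was highest in EHT-gated cells. Capitals mark GTGGGAA or its reverse complement. Hey2 is read from the minus strand of chr10:30842734-30843033, Dll4 from the plus strand of chr2:119325534-119325833 and Neurl3 from the minus strand of chr1:36273376-36273675.
Hey2: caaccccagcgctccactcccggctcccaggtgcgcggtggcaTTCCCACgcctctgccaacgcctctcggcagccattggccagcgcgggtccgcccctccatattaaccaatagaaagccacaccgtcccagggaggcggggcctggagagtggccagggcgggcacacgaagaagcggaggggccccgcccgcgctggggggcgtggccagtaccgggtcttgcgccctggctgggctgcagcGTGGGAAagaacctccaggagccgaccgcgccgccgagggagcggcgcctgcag
Dll4: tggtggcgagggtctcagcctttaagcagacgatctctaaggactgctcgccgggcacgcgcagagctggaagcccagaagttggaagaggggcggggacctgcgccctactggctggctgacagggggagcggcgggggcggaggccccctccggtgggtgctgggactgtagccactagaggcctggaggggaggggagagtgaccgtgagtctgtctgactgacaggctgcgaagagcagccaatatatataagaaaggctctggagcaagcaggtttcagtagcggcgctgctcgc
Neurl3: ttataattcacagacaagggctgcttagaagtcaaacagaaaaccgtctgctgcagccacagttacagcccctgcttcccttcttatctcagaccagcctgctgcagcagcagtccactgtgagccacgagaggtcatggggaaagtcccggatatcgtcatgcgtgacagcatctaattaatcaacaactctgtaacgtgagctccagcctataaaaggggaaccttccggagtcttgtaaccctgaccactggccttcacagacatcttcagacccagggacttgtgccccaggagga
The Dll4 and Neurl3 windows hold no match, which says only that these letters are not in these 300 bases.

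Cells were grouped by pairs of marker genes, none of them a member: Gja5 with Tmem100 (arterial-gated), Kitl with Esm1 (plexus-gated), Nr2f2 with Aplnr (venous-gated), Gfi1 with Cdh5 (EHT-gated) and Ptprc with Myb (progenitor-gated). A cell passed a pair with at least 1 UMI of both genes, and a cell that passed several was given to the pair with the highest scaled level. This gave 370 arterial-gated, 74 plexus-gated, 88 venous-gated, 198 EHT-gated and 264 progenitor-gated cells, together 994 of 2139. Macrophage-gated cells (Csf1r with C1qa, 669 cells) were kept as a population outside the vessel wall. UMIs were summed over the cells of 1 population, genotype and replicate, giving 4 sums per population, and levels are in CPM, counts per 10 to the sixth UMIs of the sum. A mean ± SD is over these 4 sums, both genotypes together, and sums are listed in the order control replicate 1, cKO replicate 1, control replicate 2, cKO replicate 2. The smallest sum held 10 cells (venous-gated, cKO replicate 2). Depth differed with the population, from a median of 24923 UMIs per arterial-gated cell to 47146.5 per EHT-gated and 78231.5 per progenitor-gated cell, and a pair is passed more easily by a deep cell.

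Markers that the pairs did not use were checked first. Endothelial genes (Pecam1, Kdr, Tek and Cldn5) summed to 1915 to 2459 CPM in arterial-gated cells, 396 to 533 CPM in EHT-gated cells and 30.6 to 119 CPM in progenitor-gated cells. A list for the EHT (Runx1, Hlf, Mycn, Adgrg1, Procr, Kit and Spi1) summed to 1058 to 1244 CPM in EHT-gated cells against 212 to 306 CPM in arterial-gated cells. It was also at 696 to 965 CPM in progenitor-gated and 458 to 651 CPM in macrophage-gated cells. The venous list (Nrp2, Ephb4, Flt4, Dab2 and Stab2) summed to 337 to 443 CPM in venous-gated cells against 123 to 134 CPM in arterial-gated cells, mostly through Nrp2 (210.4 against 5.79 CPM), while the means of Ephb4 (53.0 against 62.3 CPM) and Dab2 (30.9 against 33.6 CPM) were lower in venous-gated cells. The plexus list (Apln, Nid2, Unc5b and Plvap) did not set plexus-gated cells apart, with 1119 to 1531 CPM there and 1342 to 1788 CPM in arterial-gated cells. That population is therefore called by its pair only. The arterial list (Gja4, Htra1, Adgrg6, Efnb2 and Sox17) overlapped too, at 1060 to 2295 CPM in plexus-gated and 1860 to 2843 CPM in arterial-gated cells. The arterial and plexus pairs were both passed by 54 cells, and 35 of the 74 plexus-gated cells passed several pairs. The part of cells with both pairs in the likeness of these 2 populations was not tested. Progenitor-gated cells held 796 to 2749 CPM of myeloid genes such as Mpo and Prtn3. Nupr1, the deleted gene, was at 44.4 and 28.8 CPM in control EHT-gated cells and at 2.57 and 3.99 CPM in cKO EHT-gated cells, and had no UMI in plexus-gated or venous-gated cells. Cells with a chromosome Y UMI made up 90.7% of the cKO cells of replicate 1 and at most 1.80% of the cells of the other pools, so within replicate 1 the genotypes also differed in sex-linked genes. Cells with Xist and no chromosome Y UMI made up 98.7% of control and 57.6% of cKO cells in replicate 2. The part of these differences in the genotype comparisons was not tested.

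The receptors were highest in arterial-gated and plexus-gated cells. Notch1 stood at 171, 138, 128 and 141 CPM in the arterial-gated sums (145 ± 18.8) and at 210.5, 145, 154 and 128 CPM in the plexus-gated sums (159.5 ± 35.6). These ranges overlapped. Venous-gated sums held 62.0, 69.0, 43.2 and 48.3 CPM of Notch1, EHT-gated sums 36.4, 39.1, 32.4 and 23.9 CPM, and progenitor-gated sums 18.9, 17.8, 12.8 and 12.3 CPM. Each of these populations lay wholly below the one before it, and the progenitor-gated range overlapped that of macrophage-gated cells (10.0 to 17.6 CPM). Notch4, a receptor largely restricted to endothelium, followed the same order with a steeper fall. It was at 76.3, 79.5, 74.3 and 84.0 CPM in arterial-gated sums, 72.3 ± 10.5 CPM in plexus-gated sums, 21.4 ± 6.85 CPM in venous-gated sums and 9.59 ± 1.64 CPM in EHT-gated sums. Progenitor-gated sums ranged from 0.803 to 4.44 CPM and macrophage-gated sums from 0.590 to 0.642 CPM. The gap between them rests on few UMIs. Both replicate 2 progenitor-gated sums held 6 UMIs of Notch4, and the macrophage-gated sums 1 to 11.

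Of the ligands, Dll4, the main Delta ligand of arterial endothelium, did not separate arterial-gated from plexus-gated cells. Its sums were at 105, 104, 121 and 118 CPM in the first and at 113, 79.99, 107 and 122 CPM in the second. EHT-gated sums (16.7, 14.8, 17.4 and 13.6 CPM) and venous-gated sums (12.8, 13.6, 17.1 and 12.9 CPM) overlapped each other and lay far below. Jag1, a Jagged ligand, did separate the arterial-gated and plexus-gated cells. It was at 96.3, 105, 122 and 116 CPM in arterial-gated sums and at 39.2, 30.1, 35.0 and 29.0 CPM in plexus-gated sums, with no overlap. EHT-gated sums held 10.6 ± 1.27 CPM of Jag1 and venous-gated sums 10.4 ± 8.95 CPM, the latter spread from 3.41 to 23.4 CPM. For Jag2, each population's range overlapped that of the next in the order arterial-gated (26.5 ± 6.10 CPM), plexus-gated (20.1 ± 11.99 CPM), EHT-gated (7.45 ± 3.34 CPM), venous-gated (4.49 ± 4.17 CPM) and progenitor-gated (1.14 ± 1.21 CPM).

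The 3 targets had 3 different patterns. Hey1 was at 183, 153, 207 and 287 CPM in arterial-gated sums and at 374, 154, 288 and 290.1 CPM in plexus-gated sums, which overlapped. EHT-gated (41.4 ± 16.8 CPM) and venous-gated sums (29.4 ± 12.7 CPM) were lower than both and overlapped each other. Hey2 was the most arterial: it was at 70.3, 64.2, 52.5 and 51.1 CPM in arterial-gated sums, and no sum of any other population exceeded 16.5 CPM. Plexus-gated sums held 16.5, 5.65, 6.36 and 4.14 CPM of Hey2 and EHT-gated sums 1.82, 8.34, 4.74 and 3.19 CPM. In venous-gated cells 3 UMIs of Hey2 were counted in all. Hes1 had another order. Its means were highest in plexus-gated (113, 249, 510.3 and 516 CPM) and venous-gated sums (180, 152, 329 and 383.5 CPM), and lower in arterial-gated (83.0, 97.3, 89.1 and 149.9 CPM) and EHT-gated sums (80.1, 85.3, 62.8 and 80.1 CPM), which overlapped each other. The arterial-gated range lay below the venous-gated one and overlapped the plexus-gated one. In plexus-gated and venous-gated cells both replicate 1 sums of Hes1 lay below both replicate 2 sums.

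Rbpj and Neurl3 did not share the arterial pattern. Rbpj, through which the Notch receptors act on DNA, was at 36.5 ± 8.92 CPM in arterial-gated, 31.9 ± 14.9 CPM in plexus-gated, 33.5 ± 13.1 CPM in venous-gated, 43.1 ± 17.5 CPM in EHT-gated and 44.1 ± 16.6 CPM in progenitor-gated sums, and all 5 ranges overlapped. Macrophage-gated sums were above them at 65.9 to 132 CPM. Neurl3 was highest in EHT-gated sums (81.5, 89.2, 66.0 and 75.7 CPM). Arterial-gated sums held 17.9, 24.2, 23.1 and 16.3 CPM and progenitor-gated sums 21.5, 58.5, 13.6 and 19.5 CPM. Every EHT-gated sum of Neurl3 thus lay above every sum of the other populations, the nearest being the cKO replicate 1 progenitor-gated sum. Plexus-gated (0.941 to 14.5 CPM) and venous-gated sums (1.29 to 18.3 CPM) were the lowest and rested on 18 and 43 UMIs.

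**Figure D1:**
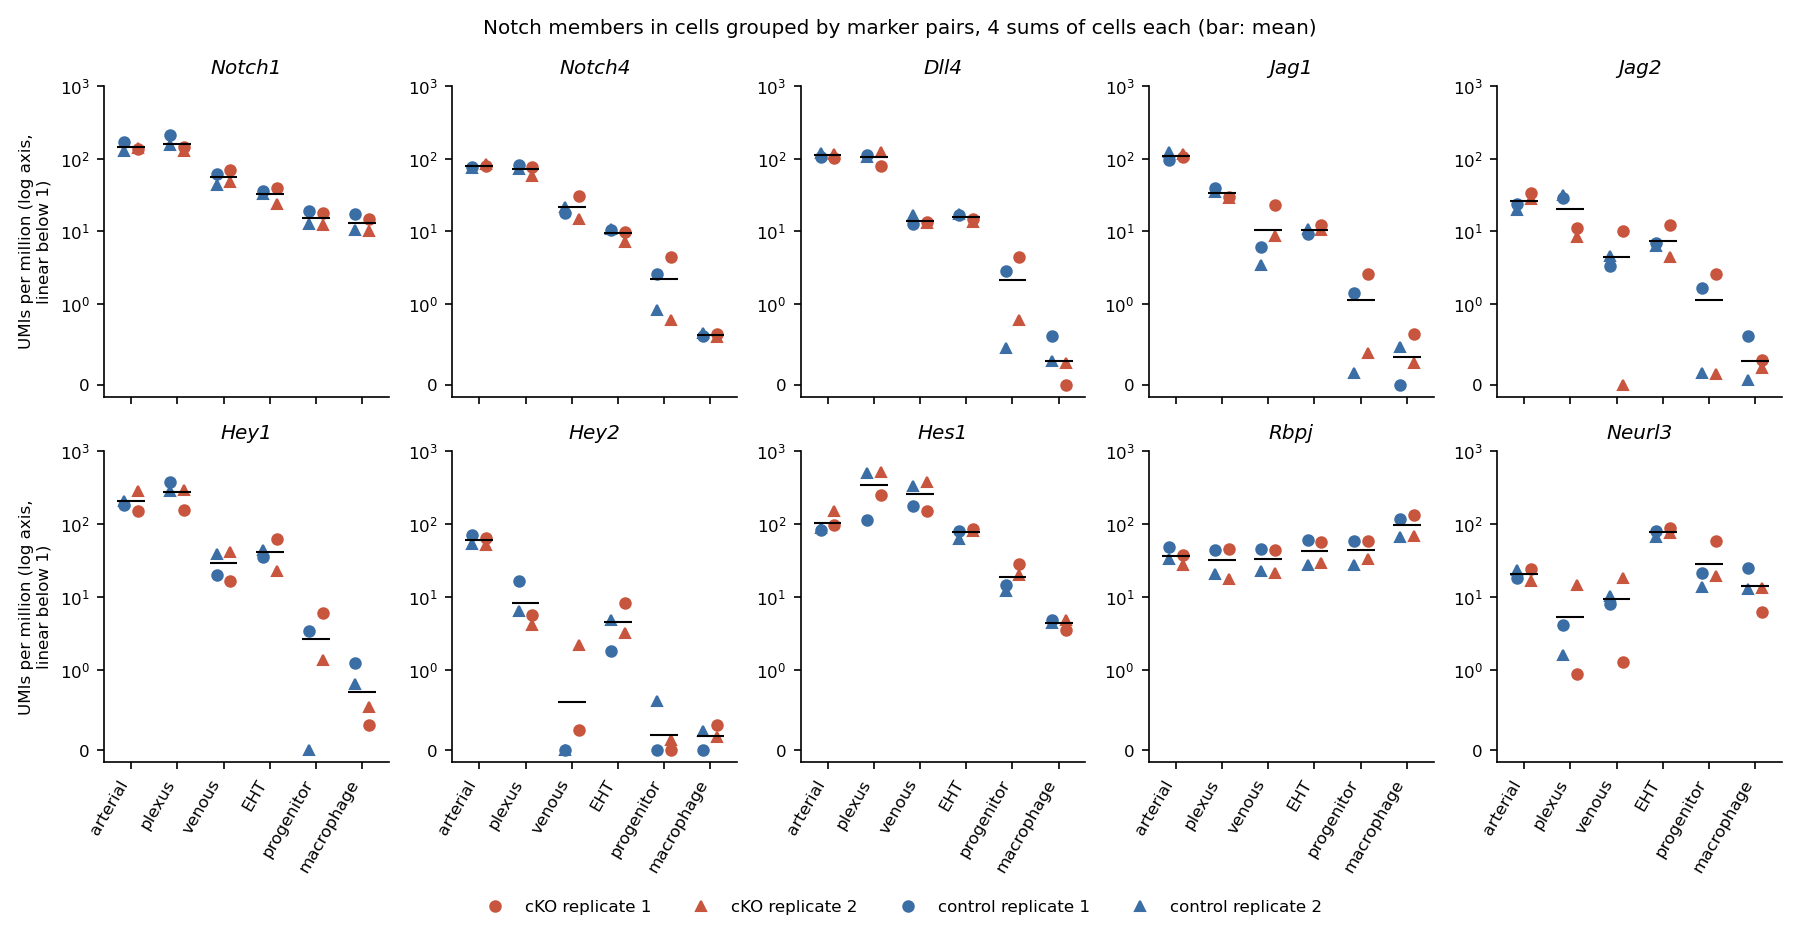
Level of each member (CPM, log axis that is linear below 1) in the 4 sums of each population. Blue marks control and red cKO, circles replicate 1 and triangles replicate 2, and the bar is the mean. Hey2 falls from 51.1 CPM or more in arterial-gated sums to 16.5 CPM or less elsewhere, and Neurl3 stands highest in EHT-gated sums.

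EHT-gated cells held less of most members than arterial-gated cells. Hey2 was 11.8-fold lower (log2 fold change -3.56 ± 0.28 SE, adjusted p = 4.55e-11), Jag1 9.62-fold lower (-3.27 ± 0.26), Notch4 7.56-fold lower (-2.92 ± 0.19), Dll4 6.52-fold lower (-2.70 ± 0.20), Hey1 4.39-fold lower (-2.13 ± 0.37), Notch1 4.02-fold lower (-2.01 ± 0.13) and Jag2 3.33-fold lower (-1.74 ± 0.37, adjusted p = 4.38e-04, the largest of these 7). Neurl3 was 4.19-fold higher (log2 fold change 2.07 ± 0.46, adjusted p = 0.00111). Both receptors, all 3 ligands and the Hey pair were therefore lower in EHT-gated cells, with no overlap between the sums of the 2 populations for any of the 7. Hes1 did not pass the test (-0.25 ± 0.32, adjusted p = 0.548). Rbpj passed narrowly as higher (0.31 ± 0.12, adjusted p = 0.0362), but 13 of 14 alternatives put it past the threshold of 0.05, with adjusted p up to 0.521, so no difference of Rbpj is drawn from this comparison. Cells of exactly 1 pair gave -4.38 for Hey2, and gating after thinning to 6000 UMIs gave -1.93 for Dll4 and -2.02 for Jag1, all still called.

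These values are from edgeR's quasi-likelihood test on all 11775 genes that passed the low-count filter, fitted over all populations together with the pool as a block and with Benjamini-Hochberg adjustment. Of all genes tested, 52.7% were called at an adjusted p under 0.05 (27.8% higher and 25.0% lower), and 9 of the 10 members were called, 2 higher and 7 lower. The populations thus differed in much of the transcriptome. The median log2 fold change was -2.07 over the members and 0.04 over all genes. One EHT-gated sum stood apart in markers of another cell type: megakaryocyte genes (Pf4, Treml1, Itga2b and Gp9) summed to 1057 CPM in control replicate 2 and to 51.0 to 131 CPM in the other 3. Without control replicate 2 the same 9 members were called. Mesenchymal genes (Actc1, Tagln, Col1a1 and Pdgfra) summed to 253 CPM in the arterial-gated sum of cKO replicate 1 and to 53.2 to 87.8 CPM in the other 3.

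Plexus-gated cells differed from arterial-gated cells in 3 members, 1 higher and 2 lower, where 13.8% of all genes tested were called (7.59% higher and 6.17% lower). Hes1 was 3.39-fold higher (log2 fold change 1.76 ± 0.32, adjusted p = 0.00116 in edgeR), Hey2 was 8.0-fold lower (-3.00 ± 0.35, adjusted p = 1.07e-06) and Jag1 was 3.32-fold lower (-1.73 ± 0.28, adjusted p = 1.31e-04). The targets thus split, with Hey2 lower, Hes1 higher and Hey1 at a log2 fold change of 0.45 ± 0.35 that did not pass (adjusted p = 0.466). Notch1 (0.18 ± 0.12), Notch4 (-0.09 ± 0.18) and Dll4 (-0.02 ± 0.19) had small differences with small errors, and Jag2 (-0.52 ± 0.42) and Neurl3 (-1.76 ± 0.92) had wide ones. The Jag2 value is over both genotypes, and with control cells alone it was 0.54. The median over the members was -0.14, beside -0.02 over all genes. Without control replicate 1 Hes1, Hey2 and Jag1 were still the members called. With control cells alone the Hes1 difference no longer passed (1.84, adjusted p = 0.213), and Neurl3 did (-2.87, adjusted p = 0.00724), as in DESeq2 (-1.93, adjusted p = 0.0426). Neurl3 was at -3.52 without cKO replicate 2.

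In venous-gated cells 8 of the 10 members were called against arterial-gated cells, 1 as higher and 7 as lower, where 39.9% of all genes were (20.6% higher and 19.4% lower). Hes1 was 2.66-fold higher (log2 fold change 1.41 ± 0.31, adjusted p = 0.00167 in edgeR). Jag1 was 7.96-fold lower (-2.99 ± 0.28), Dll4 7.19-fold lower (-2.85 ± 0.23), Hey1 7.12-fold lower (-2.83 ± 0.43), Jag2 4.67-fold lower (-2.22 ± 0.44), Notch4 3.23-fold lower (-1.69 ± 0.19) and Notch1 2.32-fold lower (-1.22 ± 0.13), with adjusted p of 3.16e-04 for Jag2 and smaller for the others. Hey2 was also called as lower. Because venous-gated cells held 3 UMIs of it, its size is given as the ratio of pooled UMIs: 611 among 10380675 UMIs of arterial-gated cells against 3 among 7179027, or 141-fold, with an exact binomial 95% interval of 48.0 to 685 that covers counting error only. Rbpj (-0.02 ± 0.14) and Neurl3 (-1.53 ± 0.73, adjusted p = 0.110) did not pass. The median log2 fold change was -1.96 over the members and -0.02 over all genes. With control cells alone, Hes1 no longer passed (1.66, adjusted p = 0.123) and Neurl3 did (-1.11, adjusted p = 0.0363), as it did with 2 UMIs per gate gene (-2.08, adjusted p = 0.0454). Without cKO replicate 1 the log2 fold change was -4.04 for Jag1, -3.06 for Jag2, -6.40 for Hey2 and -0.61 for Neurl3, and without cKO replicate 2 it was -8.25 for Hey2 and -2.20 for Neurl3. With control cells alone Jag1 was at -4.26, and Hey1 was at -3.46 with 2 UMIs per gate gene and -3.44 with cells of exactly 1 pair.

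Progenitor-gated cells held less than EHT-gated cells of every member but Rbpj. Hey1 was 20.5-fold lower (log2 fold change -4.36 ± 0.58, adjusted p = 1.39e-05 in edgeR), Hey2 15.4-fold lower (-3.95 ± 0.61, on 5 UMIs in progenitor-gated cells), Jag1 11.3-fold lower (-3.50 ± 0.47), Dll4 8.97-fold lower (-3.17 ± 0.32), Jag2 7.96-fold lower (-2.99 ± 0.57), Notch4 5.02-fold lower (-2.33 ± 0.30), Hes1 4.31-fold lower (-2.11 ± 0.36), Neurl3 2.89-fold lower (-1.53 ± 0.42, adjusted p = 0.00775) and Notch1 2.06-fold lower (-1.04 ± 0.14). Among all genes 41.9% were called (19.3% higher and 22.6% lower), and the median was -2.66 over the members and -0.03 over all genes. Hes1, which did not pass between arterial-gated and EHT-gated cells, passed here, while Rbpj did not (0.10 ± 0.12, adjusted p = 0.506). The Neurl3 call did not hold when control replicate 1 (adjusted p = 0.0736), control replicate 2 (0.0870) or cKO replicate 2 (0.0621) was left out, or in DESeq2 (0.0504). The members' calls fell from 9 to 2 when the cells were gated after thinning to 6000 UMIs, which left 39 progenitor-gated cells and 376 genes called in all. Hey2 was at -5.28 without control replicate 2, -3.28 without cKO replicate 1 and -2.89 with control cells alone, where Hes1 did not pass (-2.40, adjusted p = 0.0567). With cells of exactly 1 pair the log2 fold change was -5.97 for Hey1, -5.53 for Dll4, -4.47 for Jag1, -3.35 for Hey2 and -2.22 for Neurl3.

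**Figure D2:**
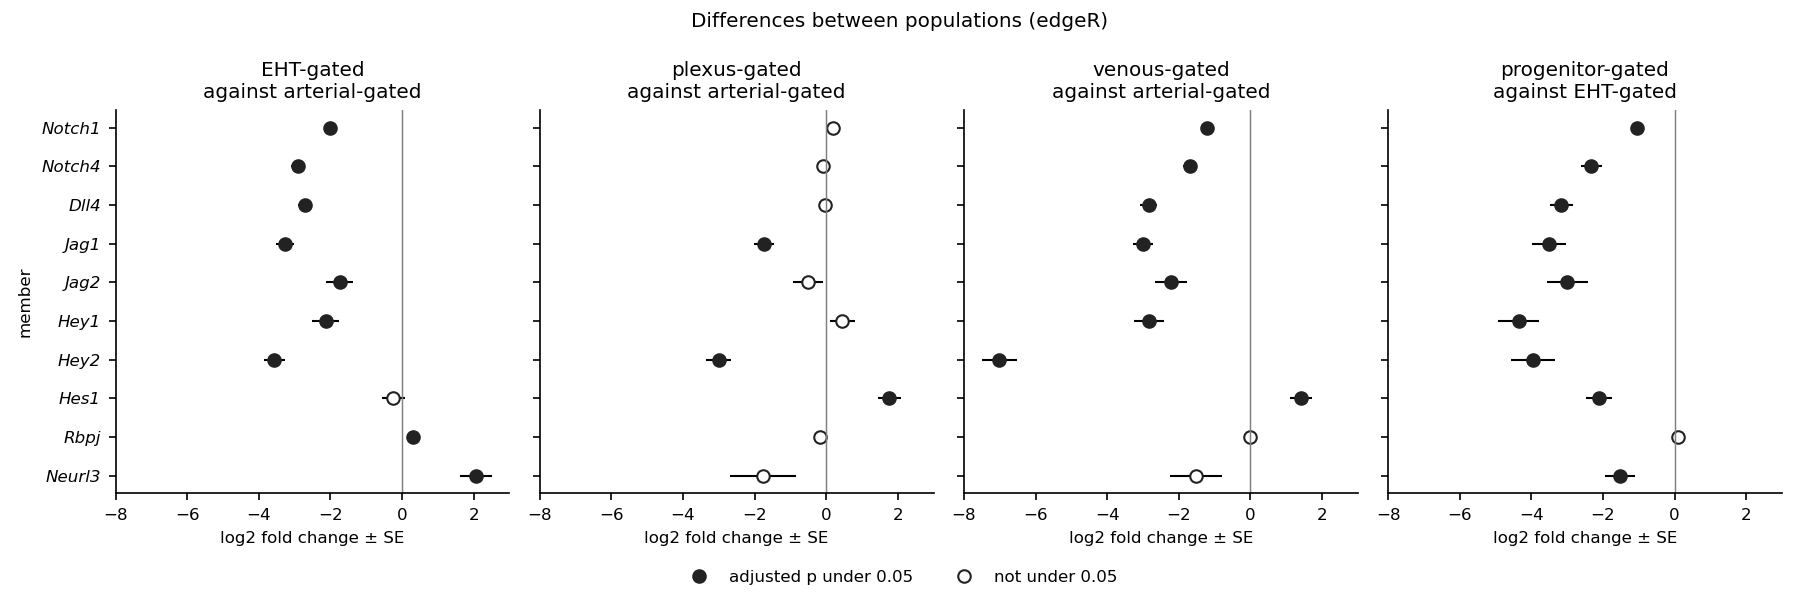
Log2 fold change of each member between populations, with its SE, from edgeR (filled circles: adjusted p under 0.05). Receptors, ligands and Hey genes lie left of 0 in EHT-gated and venous-gated cells, Hes1 lies right of 0 in plexus-gated and venous-gated cells, and Neurl3 lies right of 0 in EHT-gated against arterial-gated cells. The venous-gated value of Hey2 rests on 3 UMIs.

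Cells that passed the arterial pair, the EHT pair, the progenitor pair or 2 of them were set out as 5 steps: the arterial pair alone (310 cells), the arterial and EHT pairs (50), the EHT pair alone (113), the EHT and progenitor pairs (86) and the progenitor pair alone (175). The steps are defined by the markers, not by time. Cells of the same genotype captured together could also pass 2 pairs, which was not tested. Gja5, a gate gene, was at 1081, 637, 79.0, 12.98 and 1.76 CPM along them. The receptors, the ligands and the Hey genes had the highest mean at the first step and a lower one at each step after it. Notch1 was at 147 ± 17.2, 89.0 ± 13, 32.7 ± 8.66, 20.2 ± 7.69 and 13.3 ± 1.91 CPM. Dll4 was at 114 ± 12.1, 65.6 ± 5.61, 12.9 ± 4.45, 5.02 ± 2.01 and 0.257 ± 0.244 CPM. Dll4 was thus higher with both the arterial and the EHT pair than with the EHT pair alone. The ranges of 59.6 to 71.9 and 10.3 to 19.5 CPM did not overlap. Jag1 was at 122 ± 19.2, 63.2 ± 20.1, 10.2 ± 4.50, 1.11 ± 1.13 and 0.443 ± 0.326 CPM. Hey1 was at 211 ± 67.3, 131 ± 37.7, 43.4 ± 17.6, 11.1 ± 5.32 and 0.927 ± 0.850 CPM. Hey2 went from 66.2 ± 10.8 to 35.6 ± 6.10 and 3.01 ± 2.68 CPM, and the last 2 steps held 3 UMIs each.

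Neurl3 had its highest mean at the middle step, at 20.0 ± 5.76, 40.9 ± 14.7, 88.3 ± 12, 67.8 ± 19.7 and 19.7 ± 13.7 CPM. Its sums in cells of the EHT pair alone (80.1 to 106 CPM) did not overlap those of either end (13.8 to 27.5 and 9.95 to 40.0 CPM). Hes1 was at 108 ± 40.3, 66.5 ± 30.7, 85.7 ± 20.9, 55.6 ± 7.95 and 17.8 ± 8.80 CPM. Its range with the EHT and progenitor pairs (49.6 to 67.1 CPM) lay below that of the arterial pair alone (79.5 to 167.6 CPM), and that of the progenitor pair alone (11.3 to 30.0 CPM) lay below every other step. In cells of the arterial and EHT pairs Hes1 was at 32.1 and 48.9 CPM in cKO and at 93.1 and 91.7 CPM in control sums, on 9 to 16 cells a sum. With the EHT pair alone the order was reversed, on 24 to 34 cells a sum. There Hes1 was at 103.9 and 103.7 CPM in cKO and at 66.1 and 69.1 CPM in control sums. No genotype difference of Hes1 is therefore drawn from the steps. Rbpj was flat, from 37.9 ± 8.66 to 38.5 ± 12.5 CPM with means of 43.8 to 44.5 CPM between. Runx1, the transcription factor that drives the EHT and no member, was at 9.92, 122, 244, 204 and 179 CPM. The step with the arterial and EHT pairs rested on as few as 9 cells in a sum, and no test was made along the steps because a cell's step and depth move together.

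**Figure D3:**
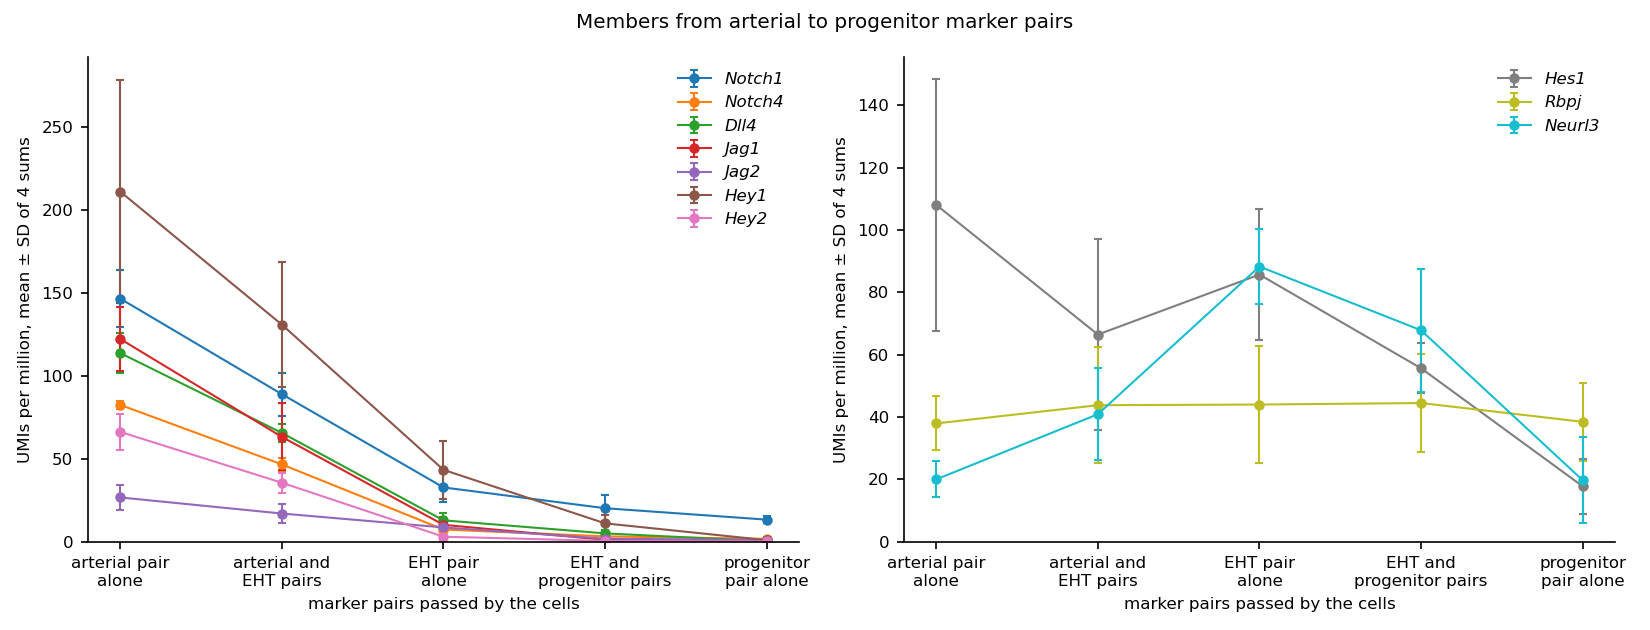
Mean CPM ± SD over 4 sums in cells that passed the arterial pair alone, the arterial and EHT pairs, the EHT pair alone, the EHT and progenitor pairs, or the progenitor pair alone. The means of the 7 receptor, ligand and Hey genes (left) decline at every step. The last 2 steps rest on 8 and 5 UMIs for Jag1, 11 and 9 for Jag2 and 3 each for Hey2, and their ranges overlap. Neurl3 (right) peaks at 88.3 CPM in cells of the EHT pair alone.

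Shares of cells with a UMI were compared after each cell was thinned to 6000 UMIs, since deeper cells show more genes, and 31 shallower cells of the series were left out. Notch1 was detected in 56.5% of arterial-gated cells (exact binomial 95% interval 51.2 to 61.6, which covers counting error only, as do the others), 58.1% of plexus-gated, 38.6% of venous-gated, 21.2% of EHT-gated and 9.51% of progenitor-gated cells. In macrophage-gated cells the share was 8.26% (6.28 to 10.6), so the progenitor-gated share (6.25 to 13.7) was not above it. Dll4 was detected in 49.9% of arterial-gated (44.6 to 55.1) and 11.6% of EHT-gated cells (7.51 to 16.9), against 0.300% of macrophage-gated cells. Hey2 was detected in 29.8% of arterial-gated cells (25.1 to 34.7) and in 5.41% of plexus-gated, 2.53% of EHT-gated and 1.14% of venous-gated cells. Jag1 was found in 44.1% of arterial-gated and 8.59% of EHT-gated cells, and in 0 of 263 progenitor-gated cells, where the interval reaches 1.39%. Hes1 was found in 59.5% of plexus-gated (47.4 to 70.7) and 58.0% of venous-gated cells (46.9 to 68.4), about as often in arterial-gated (30.9%, 26.1 to 35.9) as in EHT-gated cells (26.8%, 20.7 to 33.5). Neurl3 was found in 33.8% of EHT-gated cells (27.3 to 40.9), 9.64% of arterial-gated (6.81 to 13.2), 11.4% of progenitor-gated (7.83 to 15.9) and 7.06% of macrophage-gated cells (5.23 to 9.27). Without thinning the Neurl3 shares were 92.4%, 24.6%, 61.0% and 36.8%, at medians of 47146.5, 24923, 78231.5 and 58534 UMIs per cell.

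Detection in the same cell was also counted at 6000 UMIs. A ligand and a receptor among the members were both detected in 55.1% of arterial-gated cells (49.8 to 60.3), 47.3% of plexus-gated (35.6 to 59.3), 7.95% of venous-gated (3.26 to 15.7), 7.58% of EHT-gated (4.30 to 12.2) and 1.52% of progenitor-gated cells (0.416 to 3.85). At least 1 of the 3 targets was detected in 80.7% of arterial-gated, 89.2% of plexus-gated, 60.2% of venous-gated, 46.5% of EHT-gated and 9.51% of progenitor-gated cells. Most EHT-gated cells with a UMI of a target thus had none of a ligand together with a receptor at this depth. Of the 67 EHT-gated cells with Neurl3, 29 also had a target and 7 a ligand. Hey1 and Hes1 were found together in 39.2% of plexus-gated cells (28.0 to 51.2), 21.8% of arterial-gated (17.6 to 26.4), 4.04% of EHT-gated (1.76 to 7.81) and 7.95% of venous-gated cells.

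**Figure D4:**
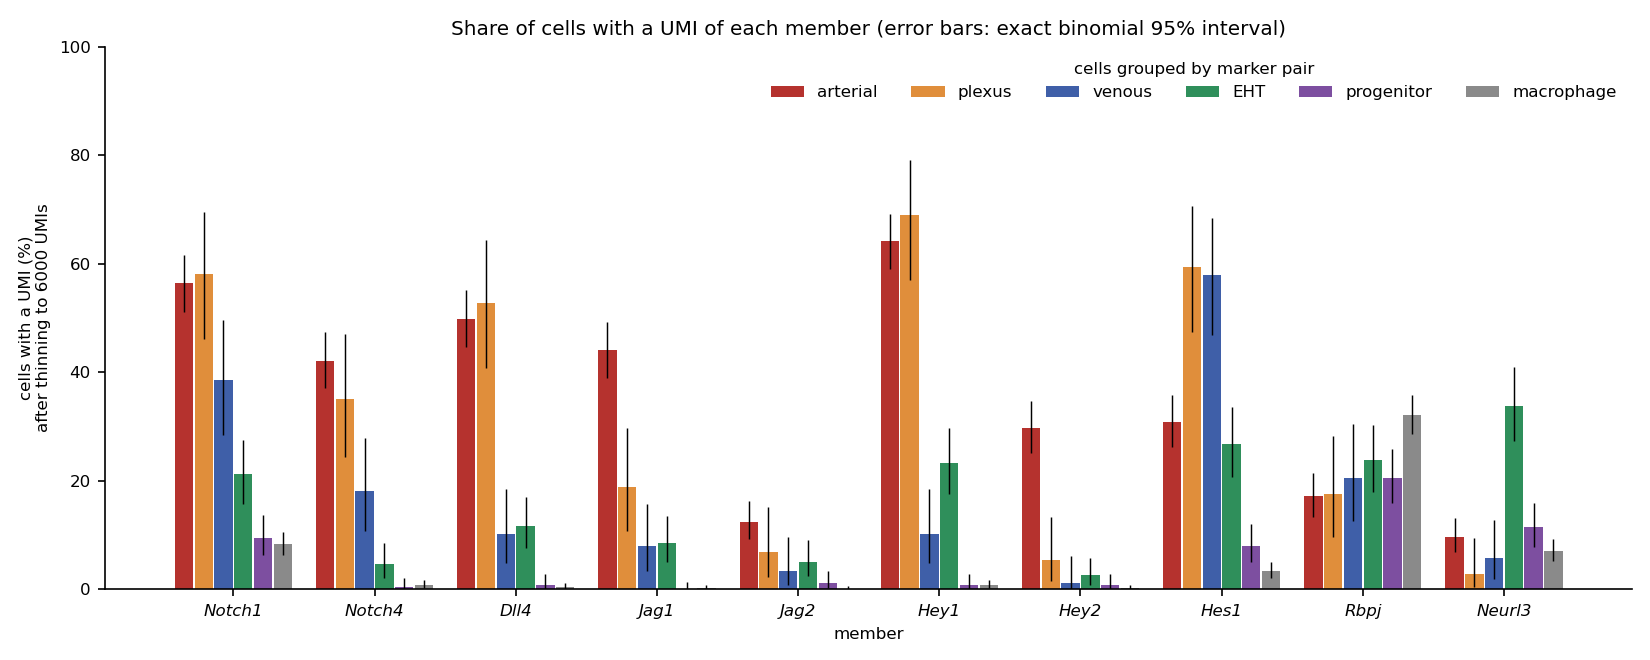
Share of cells with at least 1 UMI of each member after thinning to 6000 UMIs per cell, for 5 populations and for macrophage-gated cells as background. Error bars are exact binomial 95% intervals. Most members are detected in more arterial-gated than EHT-gated cells, and Neurl3 in more EHT-gated (33.8%) than arterial-gated cells (9.64%).

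Among 50 other genes of the pathway, 44 were tested, and in EHT-gated against arterial-gated cells 3 were called as higher and 15 as lower, or 40.9% beside 52.7% of all genes. The median log2 fold change of the 44 was -0.21. Nrarp, an inhibitor that Notch itself induces, fell from 154 ± 47.2 to 42.4 ± 9.19 CPM (log2 fold change -1.70 ± 0.19, adjusted p = 8.08e-08 in edgeR). Other named genes called as lower were the ligand Dll1 (-2.30 ± 0.45), the receptor Notch3 (-1.38 ± 0.33), Lfng, a Fringe enzyme that adds sugars to the receptors (-1.38 ± 0.30), Numb (-1.10 ± 0.19) and Numbl (-1.34 ± 0.39), inhibitors of Notch, and Aph1b, a part of gamma-secretase (-1.12 ± 0.31). Hes5, a further target, and Dtx4, a Deltex E3 ligase, were called as lower on 2 and 3 UMIs in EHT-gated cells, against 31 and 35 in arterial-gated cells (16.3-fold, exact interval 4.14 to 140.4, and 12.3-fold, 3.86 to 62.3). Dlk1, a ligand relative that lacks the receptor-activating domain, was higher (3.08 ± 0.77, adjusted p = 0.00284), at 5.93 ± 4.33 CPM in arterial-gated and 50.9 ± 43.7 CPM in EHT-gated sums. Hes6, a further Hes gene named after its values were seen, was higher (0.56 ± 0.13, adjusted p = 6.54e-04), at 50.0 ± 4.83 CPM in arterial-gated and 67.3 ± 14.3 CPM in EHT-gated sums. By role, 5 of 9 proteases and gamma-secretase parts were called as lower, while 1 of 9 coactivators and corepressors was called, as higher, and 2 of 10 tested E3 ligases were called, as lower.

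Of the 44 genes, 2 were higher and 4 lower in plexus-gated against arterial-gated cells, which is 13.6% beside 13.8% of all genes. In venous-gated against arterial-gated cells 2 were higher and 18 lower, or 45.5% beside 39.9%, and in progenitor-gated against EHT-gated cells 6 were higher and 10 lower, or 36.4% beside 41.9%. Nrarp was lower in venous-gated than in arterial-gated cells (-1.35 ± 0.20, adjusted p = 8.11e-06 in edgeR) and in progenitor-gated than in EHT-gated cells (-2.77 ± 0.24, adjusted p = 9.49e-09). Hes5 was higher in plexus-gated than in arterial-gated cells (3.62 ± 0.49, adjusted p = 8.23e-06), at 35.4 ± 41.3 CPM against 2.69 ± 2.51 CPM, as Hes1 was. Dll1 had no UMI in progenitor-gated cells and 11 in EHT-gated cells. These comparisons share arterial-gated or EHT-gated sums, so their values are not independent of each other.

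The members most alike were found by Pearson's r of log2(CPM + 1) over the 20 sums of the 5 populations, given as a description since the sums share pools and populations. Notch1 and Notch4 had r = 0.983, Dll4 and Hey1 0.979, Dll4 and Notch4 0.970 and Jag1 and Dll4 0.939. Hes1 was less like Hey1 (0.736) and Hey2 (0.221). Rbpj had r between -0.474 (with Hes1) and 0.182 (with Neurl3), and Neurl3 between -0.507 (with Notch1) and 0.182. The median ratio of replicate 1 to replicate 2 was 1.98 for Rbpj and 0.779 for Hes1. No r was adjusted for the replicate, so these values also carry that split. Among 7628 genes with a mean of at least 10 CPM, gate genes left out, the nearest to Notch1 was Pon2 (0.985), to Notch4 Cd93 (0.990), to Dll4 Unc5b (0.980), to Jag1 Tmem2 (0.979), to Jag2 Tgfbr3 (0.947), to Hey1 Dll4 (0.979), to Hey2 Ltbp4 (0.939), to Hes1 Dusp6 (0.965), to Rbpj Arid1a (0.943) and to Neurl3 Hscb (0.917). The next 2 of each were Notch4 and Plekhg5 for Notch1, Pon2 and Pecam1 for Notch4, Hey1 and Gja4 for Dll4, Ptk7 and Cd34 for Jag1, Utrn and Nbea for Jag2, Vat1 and Prnp for Hey1, P4ha3 and Lipa for Hey2, Fscn1 and N4bp3 for Hes1, Tpr and Ogdh for Rbpj, and Ccnd2 and Nipsnap1 for Neurl3.

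Between cKO and control cells no member was called in any of the 5 populations. In arterial-gated and EHT-gated cells all 10 members were tested, in plexus-gated and venous-gated cells 8 and in progenitor-gated cells 7, with 0% of all genes called in each population (edgeR, 2 sums against 2, adjusted p of 0.999 or more for every member). An unadjusted p under 0.05 was found for 190 of 10117 genes in arterial-gated and 188 of 7070 in plexus-gated cells. It was found for 78 of 7895 genes in venous-gated, 56 of 9673 in EHT-gated and 61 of 10475 in progenitor-gated cells. Each is a smaller share than the 0.05 that chance alone would give. These fits did not use the pairing of sums by replicate and were conservative. The lack of calls is therefore not read as a lack of effect. With the replicate as a block the numbers called were 0, 4, 1, 23 and 1, no member among them, and DESeq2 called 1 gene in EHT-gated and 2 in progenitor-gated cells. Nupr1 itself in EHT-gated cells had a log2 fold change of -3.47 ± 0.45 and an adjusted p of 0.0885. In EHT-gated cells the members' log2 fold changes ran from -0.29 to 0.85 with SEs of 0.27 to 0.66, and in arterial-gated cells from -0.34 to 0.54 with SEs of 0.21 to 0.29.

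Neurl3 in EHT-gated cells was at 81.5 and 66.0 CPM in control and 89.2 and 75.7 CPM in cKO sums, which overlapped (log2 fold change 0.18 ± 0.27). Dll4 in EHT-gated cells was at 16.7 and 17.4 CPM in control and 14.8 and 13.6 CPM in cKO sums, which did not overlap, with a difference of -0.25 ± 0.35 (adjusted p = 1.00, unadjusted p = 0.485). With 2 sums against 2, a gene without a difference shows no overlap in a share of 0.333 by chance if the sums vary independently. Sums of the same replicate varied together here, so the share can differ from that. The sums overlapped for 7, 6, 8, 7 and 9 of the 10 members in arterial-gated, plexus-gated, venous-gated, EHT-gated and progenitor-gated cells. The share over all genes is not set beside these counts, so they are not read as a result about the members. A lack of overlap is therefore not read as a difference here. Hey1 moved in opposite directions, from 35.7 to 62.9 CPM in replicate 1 and from 44.2 to 22.7 CPM in replicate 2. Hey2 likewise was at 1.82 and 8.34 CPM in replicate 1 and at 4.74 and 3.19 CPM in replicate 2. Hes1 in progenitor-gated cells was at 14.6 and 11.9 CPM in control and 28.1 and 19.9 CPM in cKO sums, without overlap (0.80 ± 0.31, unadjusted p = 0.0329, adjusted p = 1.00 in edgeR). Hes1 in cKO sums was also above both control sums in arterial-gated (83.0 and 89.1 against 97.3 and 149.9 CPM) cells, and in EHT-gated cells by a margin of 80.13 over 80.09 CPM (80.1 and 62.8 against 85.3 and 80.1 CPM), none of which passed. In plexus-gated cells the Hes1 sums of the genotypes overlapped, and in venous-gated cells Hes1 was lower in cKO in replicate 1 (152 against 180 CPM) and higher in replicate 2 (383.5 against 329 CPM). Jag2 in plexus-gated cells was at 28.9 and 31.8 CPM in control and 11.3 and 8.29 CPM in cKO sums (-1.61 ± 0.46, unadjusted p = 0.00559, adjusted p = 0.999 in edgeR), on 34 and 20 UMIs. In the same sums mesenchymal genes were at 51.6 and 55.6 CPM in control and 16.9 and 18.7 CPM in cKO. Endothelial genes were at 2253 and 2127 CPM in control and 1785 and 1854 CPM in cKO. The part of both lists in the Jag2 values was not tested. In arterial-gated cells Jag2 went the other way, at 24.2 and 19.8 CPM in control and 34.2 and 27.9 CPM in cKO sums. That difference did not pass either (0.50 ± 0.25, unadjusted p = 0.0756 in edgeR). Jag1 in venous-gated cells was at 6.06 and 3.41 CPM in control and 23.4 and 8.59 CPM in cKO sums (1.79 ± 0.57, unadjusted p = 0.0104, adjusted p = 1.00). When cKO replicate 2, a venous-gated sum of 10 cells, was left out, that difference was called (2.16 ± 0.55, adjusted p = 0.0124), with 1 cKO sum assumed to vary like the controls. Leaving out the same pool also called Neurl3 in progenitor-gated cells (1.64 ± 0.45, adjusted p = 0.0274), where its sums were at 21.5 and 13.6 CPM in control and 58.5 and 19.5 CPM in cKO. On the cKO side that call rests on replicate 1 alone, a progenitor-gated sum with 796 CPM of myeloid genes (2290 to 2749 CPM in the other 3) and 119 CPM of endothelial genes (30.6 to 77.3 CPM). The part of this cell content in the progenitor-gated values of Neurl3 and Hes1 was not tested.

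The difference of the cKO effect between EHT-gated and arterial-gated cells was tested directly over 8 sums. No member was called, against 0.0188% of all genes (2 of 10634). The members' differences ran from -0.42 (Notch4, SE 0.32) to 0.91 (Hey2, SE 0.55), with unadjusted p of 0.118 or more. The SEs reached 0.99 (Hey1, at a difference of -0.05). The lack of calls is therefore not read as a lack of difference.

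**Figure D5:**
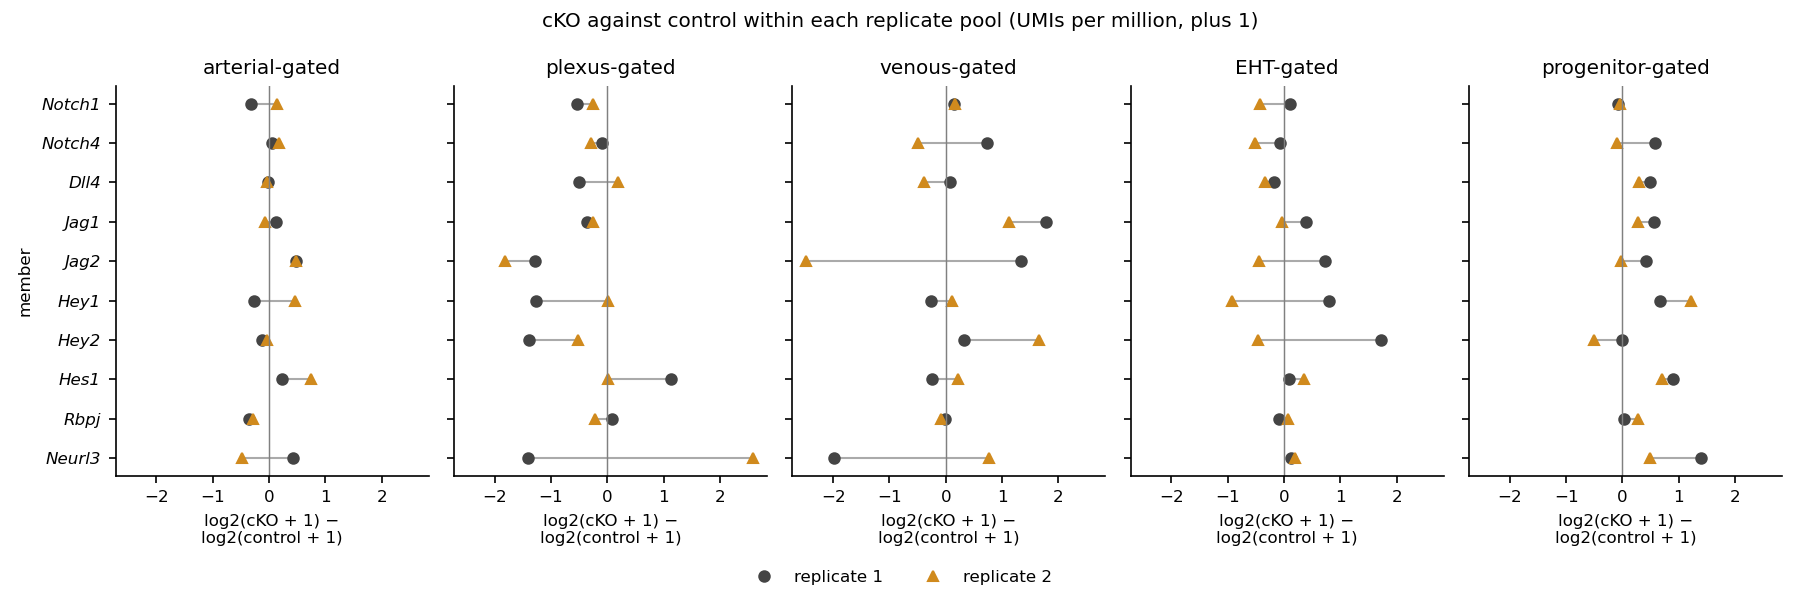
Difference of log2(CPM + 1) between cKO and control within each replicate, for each member in each population (circles: replicate 1, triangles: replicate 2, grey lines join the replicates). Jag2 lies below 0 in both replicates of plexus-gated cells and Jag1 above 0 in both of venous-gated cells, while Hey1 and Hey2 in EHT-gated cells lie on opposite sides of 0.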

How the data were processed

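Caudal CD31+CD44+ cells of 2 replicates were measured, in 4 pools of 1 genotype and 1 replicate each. According to the submitters' processing notes, Cell Ranger 5.0.1 and mm10 were used. The authors deposited unnormalized UMI counts for every gene in every cell, and a hashtag label (WT or KO) gives each cell's genotype. The members, lists and tests were chosen with earlier results of these data known. All deposited cells were kept, 101 of which miss the stated limits (1800 genes, 6000 UMIs, 5% mitochondrial reads). No doublet caller was run. Hashtag doublets had been removed, but cells of the same genotype captured together share a hashtag and can remain. In all, 441 cells passed several marker pairs. No barcode was shared between replicates. Replicate 1 held 32430285 UMIs (median 40962 per cell) and replicate 2 held 91511039 (59931).

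Cells were gated in Python 3.11.15 (numpy 2.4.6, scipy 1.17.1, pandas 2.3.3). The score of a pair was the smaller of its genes' levels, ln(1 + UMIs per 10000), each divided by that gene's 95th percentile over cells with a UMI. Counts were summed per population, genotype and replicate, and sums of at least 10 cells were tested in edgeR 4.0.16 (R 4.3.3) with filterByExpr, TMM, robust quasi-likelihood fits and Benjamini-Hochberg adjustment at 0.05. SE is the log2 fold change divided by the square root of F. Population contrasts used all sums in 1 fit with the pool as a block. Genotype contrasts used the 4 sums of a population. The replicate numbers pair the sums, since control and cKO cells of a replicate were loaded together, and deviations of paired sums from their genotype means correlated across genes with r = 0.372 (plexus-gated) to 0.547 (progenitor-gated). The fits were tested on simulated data with known changes.

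All 10 members and Nupr1 were named, and of 50 further pathway genes the 10 with the largest change among those called in EHT-gated against arterial-gated cells. Alternatives were RLE normalization, DESeq2 1.42.0, no low-count filter, at least 2 UMIs per gate gene, cells of exactly 1 pair, the 5 pairs alone, gating after thinning to 6000 UMIs, the stated limits, with and without the block, control cells alone, all populations in 1 fit and leaving out each pool. The last was added for the difference of the cKO effect after the data were seen.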

Additional observations from a re-analysis of the deposited data

Results flagged for a closer look

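Among 50 groups of 4 sums (10 members in 5 populations), 1 had a sum far from the others, where chance flags about 1 in 20 groups. Hey2 in the venous-gated sum of cKO replicate 2 was at 2.15 CPM, on 2 UMIs from 10 cells, while the other 3 sums were at 0 to 0.257 CPM. Its gap to the nearest sum was 0.880 of the range, above Dixon's critical value for 4 samples. The value is below the limit that a count of 3 UMIs would set in that sum.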

How the results depend on the processing

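Of 590 values of members under alternatives, 545 kept their direction and their side of the threshold, 25 no longer passed, 7 newly passed and 13 changed sign. Among the last, Jag2 in plexus-gated against arterial-gated cells went from -0.52 to 0.54 with control cells alone. In control its sums were at 28.9 and 31.8 CPM in plexus-gated and 24.2 and 19.8 CPM in arterial-gated cells. In cKO they were at 11.3 and 8.29 CPM against 34.2 and 27.9 CPM. The cause was not tested. In EHT-gated against arterial-gated cells thinning to 6000 UMIs left 1536 genes called. In plexus-gated against arterial-gated cells 602 were called with control cells alone, 942 with no replicate block and 1011 to 1271 with 1 pool left out (1079 without control replicate 1, 1071 without control replicate 2, 1011 without cKO replicate 2). There Notch4 was at 0.0726 and Jag2 at 0.54 with control cells alone, Dll4 at 0.0227 with the 5 pairs alone and 0.00214 with control cells alone, and leaving out a pool gave -0.179 to 0.0347 for Notch4 and -0.113 to 0.0445 for Dll4. Control cells alone gave 2492 genes called in venous-gated against arterial-gated cells and 3239 in progenitor-gated against EHT-gated cells, both from fewer sums. Rbpj in venous-gated cells was at 0.0201 with 2 UMIs per gate gene, 0.0851 with no replicate block and -0.146 to 0.0769 with a pool left out. Thinning left 376 genes and 2 members called in progenitor-gated against EHT-gated cells, with Hey2 at 0.43 and Rbpj at -0.99, and cells of 1 pair only gave -0.0803 for Rbpj. Median unthinned shares over the members were 73.8%, 71.6%, 50.6%, 49.5% and 9.85% in arterial-gated, plexus-gated, venous-gated, EHT-gated and progenitor-gated cells, against 36.5%, 27.0%, 10.2%, 16.4% and 0.951% after thinning.

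For cKO against control, with 0 genes called in each population, no low-count filter gave 30, 15, 11, 10 and 44 genes in arterial-gated, plexus-gated, venous-gated, EHT-gated and progenitor-gated cells. The replicate block gave 4, 1, 23 and 1 in the last 4 of these populations and changed no call of a member. With 2 UMIs per gate gene 1 gene was called in EHT-gated and 1 in progenitor-gated cells, DESeq2 gave 1 and 2, and cells of 1 pair only gave 1 in progenitor-gated cells. Leaving out a pool gave 5 to 29, 1 to 85, 2 to 90, 3 to 18 and 7 to 134 genes, with 0 to 1 members in venous-gated and progenitor-gated cells, and the lone sum is then assumed to vary like the others. The difference of the cKO effect gave 1 gene with 2 UMIs, 1 in DESeq2, 5 with cells of 1 pair only, 27 with no filter, 0 with no replicate block, 0 after thinning and 1 to 56 with a pool left out. Thinned plexus-gated and venous-gated cells, plexus-gated cells of 1 pair and the venous-gated genotype comparison at 2 UMIs had a sum under 10 cells and were not run. Depth limits the low members: Hey2 rested on 3 UMIs in venous-gated and 5 in progenitor-gated cells.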

Other observations

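Rbpj differed between the replicates and was chosen for this description after its values were seen. Rbpj was higher in replicate 1 than in replicate 2 in 10 of 10 pairs of sums of the same genotype and population, with a median ratio of 1.98. In EHT-gated cells it was at 60.1 and 56.5 CPM in replicate 1 and at 27.3 and 28.7 CPM in replicate 2. Macrophage-gated sums showed the same split, at 118 and 132 CPM against 65.9 and 69.0 CPM. Of 7639 genes with a mean of at least 10 CPM, 14.5% were higher in replicate 1 in all 10 pairs, and 86 had a median difference at least as large as that of Rbpj. Notch1 was higher in replicate 1 in 9 of 10 pairs (median ratio 1.39), Dll4 in 5 of 10 (1.01) and Hes1 in 4 of 10 (0.779). The replicates also differ in depth (medians of 40962 and 59931 UMIs per cell) and in embryos, and these cannot be told apart.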
